A study of Mus musculus with 4 samples.

Results

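Of 594 X-linked regions in a list of DNA methylation differences between parental alleles, 279 lay away from the ends of expressed genes. A region was taken when it did not touch the 2 kb either side of either end of any X gene with an FPKM of at least 1 in RNA library 1, and 510 of 2609 listed X genes had such an FPKM. The whole list held 1600 regions with levels on both alleles. Of these, 315 lay on the X chromosome beside an expressed gene end and 1006 lay on autosomes. The regions were thus selected on measured values, namely the methylation difference that the authors called and the gene FPKM. Direction, level and length are therefore given as a description, with no test.

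MethylC-seq, which reads the methylation of single cytosines after bisulfite treatment, and RNA-seq were carried out with 2 libraries each on prefrontal cortex, taken from females aged 14 weeks. The animals were F1 mice labelled C57BL6J/Spretus, and all of them carried a mutation of the long noncoding RNA Xist on the maternal allele. In the strain label the mother is taken to stand first, which makes Spretus the paternal allele. There was no group without the mutation, so the comparison is between the alleles within the same tissue. DNA and RNA came from cortex pooled over 2 individuals of separate litters, and the MethylC-seq libraries were separate amplifications of the same ligated DNA. The p-values given for RNA therefore rest on the variation from library to library alone, and that may be technical. The region list gives 1 level per allele, as a fraction of methylation from 0 to 1, with no value per library, and the depth behind it is unknown.

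In female mammals Xist RNA coats the X chromosome it is made from and silences most of its genes. The CG-rich promoters of the silenced copy gain DNA methylation, while those of the active copy stay unmethylated, and methylation in gene bodies and between genes follows other patterns. A few genes, called escape genes, keep being read from the silenced copy. A mutation that disables 1 Xist allele leaves the other parent's X chromosome as the one that is silenced in every cell. Xist had 31 C57 against 2158 Spretus reads in library 1 and 9 against 795 in library 2, so nearly all Xist RNA came from the Spretus allele. RNA library 1 held 4768237 allele-assigned reads and library 2 held 1291903. Pan-neuronal marker genes had medians of 455 FPKM (library 1) and 107 (library 2). Lists of markers of the choroid plexus, the cerebellum and the olfactory bulb had medians of 0.387, 0.684 and 0.154 in library 1. Markers of astrocytes, oligodendrocytes, microglia and endothelium reached 20.3, 153, 18.3 and 10.8 there. Blood markers were also high, at 291 FPKM (library 1) and 20.5 (library 2), so the tissue was not free of blood RNA. In bulk tissue, fewer cells of a type and less RNA or methylation per cell cannot be told apart.

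Of the 279 regions, 34 touched a promoter window of RefSeq, counted as the 250 bases before to 50 bases after a start site, and all 34 were higher on Spretus. These windows, 38 of 35 genes in the build GRCm38.p6, show what lay under the regions for which sequence could be read. The sequences below run 5′ to 3′ along each gene's strand and are the 250 bases before the start site, with each CG pair in capitals, the site at which a vertebrate genome carries most of its methylation. The cytosine context of the list is not given in its header, but all 62 region starts and all 55 region ends of the whole list that fell in such a window stood on a CG. The first set belongs to genes under 1 FPKM, shown because the region stands at the start of a gene that the cortex hardly expressed. They lie at chrX:53975193-53975442 (minus strand, 14 CG), chrX:113298006-113298255 (plus strand, 13 CG), chrX:140062569-140062818 (minus strand, 17 CG), chrX:102250777-102251026 (minus strand, 30 CG) and chrX:75764700-75764949 (minus strand, 8 CG).
Gm15482: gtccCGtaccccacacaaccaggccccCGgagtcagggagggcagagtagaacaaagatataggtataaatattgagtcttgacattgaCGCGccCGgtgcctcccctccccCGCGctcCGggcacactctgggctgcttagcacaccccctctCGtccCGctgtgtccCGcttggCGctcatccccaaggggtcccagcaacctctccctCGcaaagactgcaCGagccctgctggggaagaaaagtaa
Dach2: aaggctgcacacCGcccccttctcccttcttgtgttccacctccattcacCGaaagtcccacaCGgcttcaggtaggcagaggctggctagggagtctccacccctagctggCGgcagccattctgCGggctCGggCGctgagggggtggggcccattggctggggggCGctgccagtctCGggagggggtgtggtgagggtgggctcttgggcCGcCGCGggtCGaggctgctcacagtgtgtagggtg
Nup62cl: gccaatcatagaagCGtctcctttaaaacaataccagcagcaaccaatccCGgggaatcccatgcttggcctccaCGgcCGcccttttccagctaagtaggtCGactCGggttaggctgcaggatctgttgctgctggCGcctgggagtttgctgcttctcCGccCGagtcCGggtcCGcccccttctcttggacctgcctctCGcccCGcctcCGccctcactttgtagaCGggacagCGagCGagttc
Cited1: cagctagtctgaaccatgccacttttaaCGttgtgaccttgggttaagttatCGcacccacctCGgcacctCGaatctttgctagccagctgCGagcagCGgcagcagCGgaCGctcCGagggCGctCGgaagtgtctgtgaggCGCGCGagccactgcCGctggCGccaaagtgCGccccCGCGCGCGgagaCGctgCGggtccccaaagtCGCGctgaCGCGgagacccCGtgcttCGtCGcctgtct
4933407K13Rik: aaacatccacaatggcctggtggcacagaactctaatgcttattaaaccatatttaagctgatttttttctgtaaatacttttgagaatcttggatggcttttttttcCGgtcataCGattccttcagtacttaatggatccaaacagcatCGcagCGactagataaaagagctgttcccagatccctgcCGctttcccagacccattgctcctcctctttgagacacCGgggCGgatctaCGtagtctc

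The Gm15482 window lay inside a region of 2352 bp whose level was 0 on C57 and 0.515 on Spretus. Dach2, a transcription factor of the dachshund family, had a region with levels of 0 and 0.523. Nup62cl, related to a nuclear pore protein, had 0.0204 and 0.715. Cited1, a transcriptional coactivator, had 0.00508 and 0.605, and 186 of its 250 bases fell in the region. The last sequence belongs to 4933407K13Rik, the transcript of the Dxz4 repeat locus, which is known as the hinge of the folded silenced X chromosome. Its region had levels of 0.0367 and 0.512 and held 141 of the 250 bases. In each case the level of the region was near 0 on C57 and above 0.5 on Spretus, and no level is given for the window alone.

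The second set belongs to genes at or above 1 FPKM whose RefSeq start lies inside the gene's locus, and is shown because these regions count as away from gene ends only by the outer ends of the locus. They lie at chrX:169879369-169879618 (plus strand, 9 CG), chrX:71214824-71215073 (plus strand, 13 CG), chrX:73880791-73881040 (minus strand, 20 CG) and chrX:74246535-74246784 (minus strand, 15 CG).
Mid1: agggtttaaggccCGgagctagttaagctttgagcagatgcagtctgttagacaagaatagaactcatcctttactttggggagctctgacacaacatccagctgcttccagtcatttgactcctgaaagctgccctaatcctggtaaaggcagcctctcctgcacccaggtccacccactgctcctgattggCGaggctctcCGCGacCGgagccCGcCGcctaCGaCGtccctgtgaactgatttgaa
Mtm1: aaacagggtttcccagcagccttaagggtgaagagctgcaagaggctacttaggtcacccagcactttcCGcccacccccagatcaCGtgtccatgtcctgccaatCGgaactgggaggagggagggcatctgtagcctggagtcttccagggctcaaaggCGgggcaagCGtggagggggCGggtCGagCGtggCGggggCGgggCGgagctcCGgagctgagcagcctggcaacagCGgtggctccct
L1cam: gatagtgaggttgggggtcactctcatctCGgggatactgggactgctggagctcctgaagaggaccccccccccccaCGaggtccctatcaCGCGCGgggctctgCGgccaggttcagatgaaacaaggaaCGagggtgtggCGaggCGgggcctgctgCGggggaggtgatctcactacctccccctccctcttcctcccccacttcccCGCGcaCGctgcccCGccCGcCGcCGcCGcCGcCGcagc
Flna: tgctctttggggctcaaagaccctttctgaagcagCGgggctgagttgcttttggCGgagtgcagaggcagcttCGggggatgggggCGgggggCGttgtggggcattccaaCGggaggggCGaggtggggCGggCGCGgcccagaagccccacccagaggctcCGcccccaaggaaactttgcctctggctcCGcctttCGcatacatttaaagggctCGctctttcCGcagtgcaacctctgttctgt

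Mid1, a ubiquitin ligase of microtubules, had a region whose C57 level was 0.0479 and whose Spretus level was 0.663. Mtm1, the lipid phosphatase myotubularin, had 0 and 0.601. L1cam, a neural cell adhesion molecule, had 0 and 0.627, and Flna, which crosslinks actin, had 0 and 0.595. All 4 windows lay wholly inside their region. In all, 15 touched windows belonged to 13 genes of at least 1 FPKM, with start sites 3140 to 241512 bp from the nearer locus end. A further 19 windows belonged to 18 genes under 1 FPKM, and 4 had no match in the RNA table. So 12 of the 34 promoter regions lay at starts inside the locus of an expressed gene. At Frmpd3 the RefSeq start lay 25231 bp outside the locus listed in the RNA table.

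The touched windows were richer in CG than X promoters in general. All region starts and ends that fell in a window stood on a CG, so part of this gap may follow from how regions are called. Their median was 13.5 CG per 300 bases (range 5 to 32), against 15 in windows touched by regions beside expressed ends, 5 in windows touched by neither and 7 in all X windows. At least 10 CG stood in 71.1% of them, in 78.3% of those beside expressed ends and in 38.6% of all X windows. The motif searched was CG, which reads the same on both strands, and 92.7% of all X windows held at least 1. A window was called CpG-rich where the observed over expected ratio of CG was at least 0.6 and the GC content at least 50%. By this measure 34.2% of the touched windows were CpG-rich, against 52.2% of those beside expressed ends and 23.5% of all X windows. Among RefSeq windows of all chromosomes the share was 33.5%, close to that of the touched windows. No test was made over windows, and these shares describe the windows alone.

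**Figure D1:**
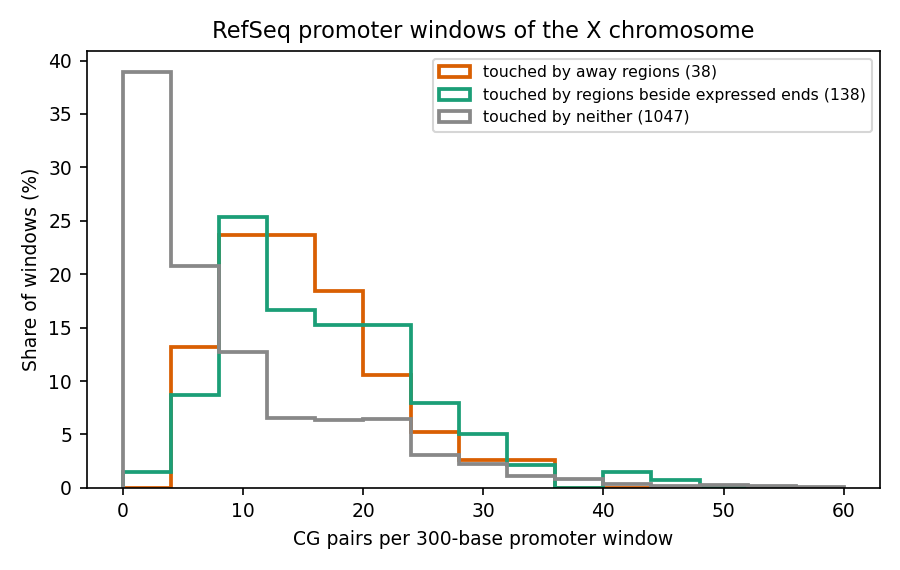
Number of CG pairs per 300-base RefSeq promoter window (x axis) against the share of windows in percent (y axis), for X windows touched by a region away from expressed gene ends, touched by a region beside them, or touched by neither. Windows touched by a region sit to the right of the rest, with medians of 13.5 and 15 CG against 5.

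Most of the 279 regions were more methylated on Spretus, the silenced X chromosome, but with a larger minority in the other direction than beside expressed ends. Higher on Spretus were 209 (74.9%, exact 95% interval 69.4 to 79.9%) and higher on C57 were 70 (25.1%). Beside expressed gene ends, 310 of 315 (98.4%) were higher on Spretus, and among autosomal regions 268 of 1006 (26.6%) were. Of the 75 X regions that were higher on C57, 70 thus lay away from expressed ends. The intervals cover counting error only, since regions share the same DNA and are not replicates of each other. Without the 34 regions at promoters, 175 of 245 (71.4%) were higher on Spretus.

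Among the regions higher on Spretus the median C57 level was 0.0400 and the median Spretus level 0.733, with a median difference of 0.637. The C57 level was below 0.1 in 149 of the 209 (71.3%) and exactly 0 in 62, and the Spretus level was at least 0.5 in 204. In the other 60 the C57 level ran from 0.102 to 0.534, with medians of 0.195 on C57 and 0.810 on Spretus. The corresponding medians of the 149 were 0.0132 and 0.706, so both alleles stood higher in the 60. Of the 34 regions at promoters, 33 belonged to the 149. By place, 27 of the 60 lay in the bodies of expressed genes, 22 between genes, 10 at ends of low genes and 1 in the body of a low gene. Beside expressed ends, the C57 level was below 0.1 in 277 of 310 (89.4%), with medians of 0.00695 and 0.694.

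The 70 regions higher on C57 had medians of 0.928 on that allele and 0.232 on Spretus. The Spretus level fell below 0.1 in 21 of them (0 in 17), between 0.1 and 0.5 in 42, and at 0.5 or more in 7. Most of these regions were therefore not all-or-none between alleles, unlike the autosomal regions higher on C57, whose median Spretus level was 0.0365. Of the 21 regions with little methylation on Spretus, 8 lay in Firre, a gene for a repeat-rich nuclear RNA. The other 13 had a median length of 13 bp, and 10 of them were shorter than 50 bp. Among the 42 intermediate regions, 27 were at least 200 bp long and the medians were 0.924 on C57 and 0.339 on Spretus. No region higher on C57 touched a RefSeq promoter window.

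**Figure D2:**
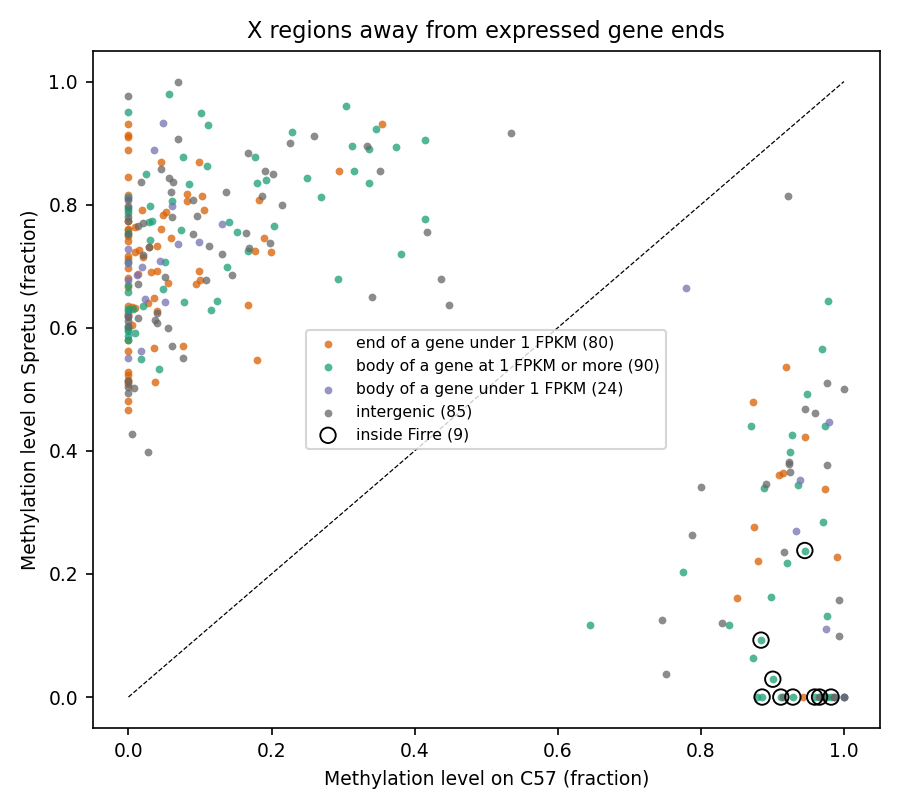
Methylation level on C57 (x axis, fraction) against the level on Spretus (y axis, fraction), each point 1 of the 279 regions, coloured by its place, with a ring around the 9 regions inside Firre. Points gather at the upper left, where C57 is near 0 and Spretus near 0.7, and a second, smaller group stands at the right, where C57 is at least 0.645 and Spretus runs from 0 to 0.814.

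The regions were short, with a median length of 355 bp (range 4 to 2856 bp), and covered 123557 bp in all. Those higher on Spretus had a median of 366 bp and those higher on C57 308.5 bp, against 505 bp for all regions beside expressed ends and 77.5 bp on autosomes. The shortest regions had the least one-sided direction. Of 28 regions under 50 bp, 13 (46.4%) were higher on Spretus, whereas the share ran from 76.7 to 78.7% in the classes between 50 and 1000 bp and reached 83.3% (20 of 24) from 1000 bp up. On autosomes, regions higher on C57 had a median length of 31.5 bp. The bases of the Spretus genome under the regions were not analysed here.

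**Figure D3:**
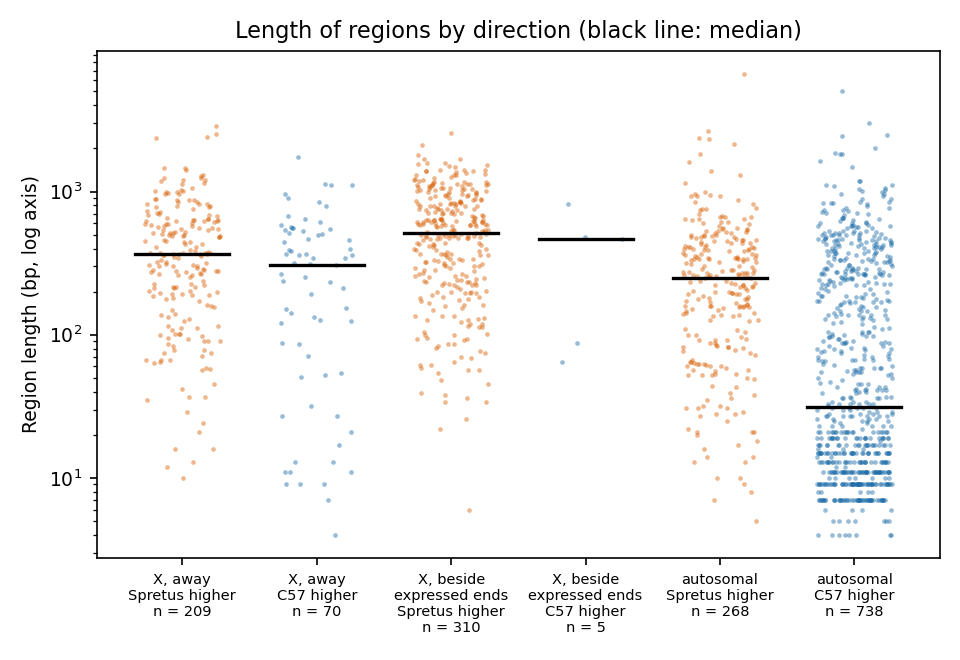
Length of regions in bp (y axis, log axis) for the X regions away from expressed gene ends, the X regions beside them and the autosomal regions, each split by the allele with the higher level; points are regions and the black line is the median. The X regions away from expressed ends have medians of 366 bp (higher on Spretus) and 308.5 bp (higher on C57), and the autosomal regions higher on C57 sit lowest at 31.5 bp.

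The longest regions show what the long end of this set holds. The longest, at chrX:137120900-137123755, covers 2856 bp at Esx1, a homeobox gene of the placenta and testis, and had levels of 0.0458 on C57 and 0.760 on Spretus. An intergenic region of 2537 bp at chrX:57920499-57923035 had 0.108 and 0.678. The Mid1 region, of 2406 bp at chrX:169879058-169881463, and the Gm15482 region, at chrX:53974610-53976961, come next and hold the promoters printed above. At Irs4, an adaptor of insulin receptor signalling, a region of 1452 bp (chrX:141723306-141724757) had 0 and 0.711. Of the 8 longest, 7 were higher on Spretus. The exception was a region of 1732 bp inside Firre (chrX:50619840-50621571), with 0.884 on C57 and 0.0925 on Spretus.

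Outside Firre, the longest regions higher on C57 also had Spretus levels above 0.5. An intergenic region of 1122 bp at chrX:118144565-118145686 had 0.922 and 0.814, and it was the region farthest from any expressed gene end, at 1781510 bp. A region of 1106 bp in Mbnl3, a splicing regulator (chrX:51142660-51143765), had 0.779 and 0.664. In Diap2, a formin of the actin cytoskeleton, a region of 964 bp (chrX:130124159-130125122) had 0.969 and 0.565. Only 3 of the 279 regions differed by less than 0.2, the first 2 of these among them.

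The largest differences among regions of at least 200 bp were close to complete. On the Spretus side they were at Hmgn5, a nucleosome-binding protein (chrX:109012275-109012592, 0 on C57 and 0.913 on Spretus), at Esx1 (chrX:137120150-137120374, 0 and 0.888) and in Fgf13, a regulator of sodium channels (chrX:59133274-59133553, 0.0247 and 0.849). On the C57 side, all 3 were in Firre, at chrX:50583901-50584135 (0.982 and 0), chrX:50590875-50591987 (0.966 and 0) and chrX:50623072-50623611 (0.959 and 0).

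By place, 80 regions touched the 2 kb around an end of a gene under 1 FPKM, 90 others lay in the body of a gene at or above it, 24 in the body of a gene under it and 85 between genes. The regions at ends of low genes came nearest to those beside expressed ends. Of these 80, 69 (86.3%) were higher on Spretus, with medians of 0.0148 on C57 and 0.715 on Spretus among the 69 and a median length of 495 bp over all 80. In bodies of expressed genes, 61 of 90 (67.8%) were higher on Spretus, with medians of 0.0741 and 0.772 and a length of 295.5 bp over all 90. Without the 9 Firre regions this was 61 of 81 (75.3%). Between genes, 61 of 85 (71.8%) were higher on Spretus, with medians of 0.0607 and 0.753. In bodies of low genes 18 of 24 were. The exact 95% intervals of these shares were 76.7 to 92.9% at low ends, 57.1 to 77.2% in expressed bodies and 61.0 to 81.0% between genes. These intervals cover counting error only, and the differences between places were not tested.

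Most regions were still near some gene. The median distance to the nearest expressed gene end was 36288 bp, and 58 regions lay within 10 kb of one while 78 lay more than 100 kb away. To the nearest end of any listed gene the median was 5769 bp. Regions higher on C57 lay farther out, with a median of 14447 bp to any gene end against 4116 bp for those higher on Spretus. Between genes the corresponding medians were 16884 and 14194 bp, which is a smaller gap. Only 9 regions lay more than 100 kb from any listed gene end. Of these 9, 5 lay between genes and 7 were higher on C57.

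Regions on both sides of the distance limit were higher on Spretus. The nearest members stood in Kdm6a, a histone demethylase, 2033 bp from its end (chrX:18164608-18165365, 0.0287 and 0.771), in Ddx3x, an RNA helicase, at 2056 bp (chrX:13283026-13283596, 0 and 0.795) and in Stag2, a cohesin subunit, at 2098 bp (chrX:42151415-42151553, 0 and 0.760). Just inside the limit, and so not counted, were regions near Rps4x at 1965 bp (0.0769 and 0.830), Tmem35 at 1963 bp (0.170 and 0.818) and Pim2 at 1900 bp (0.133 and 0.913). On each allele the levels of these 3 were above those of the 3 members. For the expression limit, Hmgn5 stood just under it at an FPKM of 0.998 and Arhgap6 just over it at 1.03.

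Neighbouring regions joined wherever the gap was at most 10 kb gave 36 clusters that held 86 of the 279 regions (30.8%), 28 of them pairs. In 29 clusters all regions were higher on Spretus, in 4 all were higher on C57, and 3 were mixed. With wider gaps more were mixed, 11 of 48 clusters at 50 kb and 15 of 53 at 100 kb. There were 8 clusters of 3 or more, and those described here stood at Firre, Esx1, Bcor, Sox3, Irs4 and one stretch between genes near Gm25023. Regions of a cluster share their stretch of DNA and were not counted as separate evidence.

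The largest cluster held 6 regions in Firre (chrX:50566505-50591987), with C57 levels of 0.901 to 0.982 and Spretus levels of 0 to 0.238. With 3 more regions further along the gene, all 9 Firre regions were higher on C57, and 6 of them had a Spretus level of 0. The cluster at Esx1 (chrX:137117825-137128022) held 4, with C57 levels of 0 to 0.0486 and Spretus levels of 0.709 to 0.888. Of these, 3 lay at least partly in the body of Esx1, and the last touched an end of the neighbouring Gm15040 instead. The 9 regions of this set inside Firre were thus all higher on C57, and the 4 of the Esx1 cluster all higher on Spretus. The whole list has 1 more region at an end of Firre, which the distance rule leaves out because Firre is expressed.

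Of the clusters of 3 regions, the one in Bcor, a corepressor of the Polycomb system, was higher on C57 throughout (chrX:12074104-12085671). Its C57 levels were 0.873, 0.645 and 0.839 and its Spretus levels 0.0635, 0.116 and 0.117. Bcor held 2 more regions farther along, also higher on C57. Another cluster stood at Sox3, a transcription factor of neural progenitors, and the neighbouring Gm14662 (chrX:60890999-60899059). Its C57 levels were 0.0395, 0.0946 and 0.180 and its Spretus levels 0.733, 0.671 and 0.548. Only the first of these regions touched Sox3, and the others touched Gm14662. A listed region of 32 bp without levels (chrX:60893068-60893099) lay in the same stretch and was not used. At Irs4 (chrX:141721466-141726563) and near Gm25023 (chrX:57918554-57923035) all 6 regions were higher on Spretus.

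**Figure D4:**
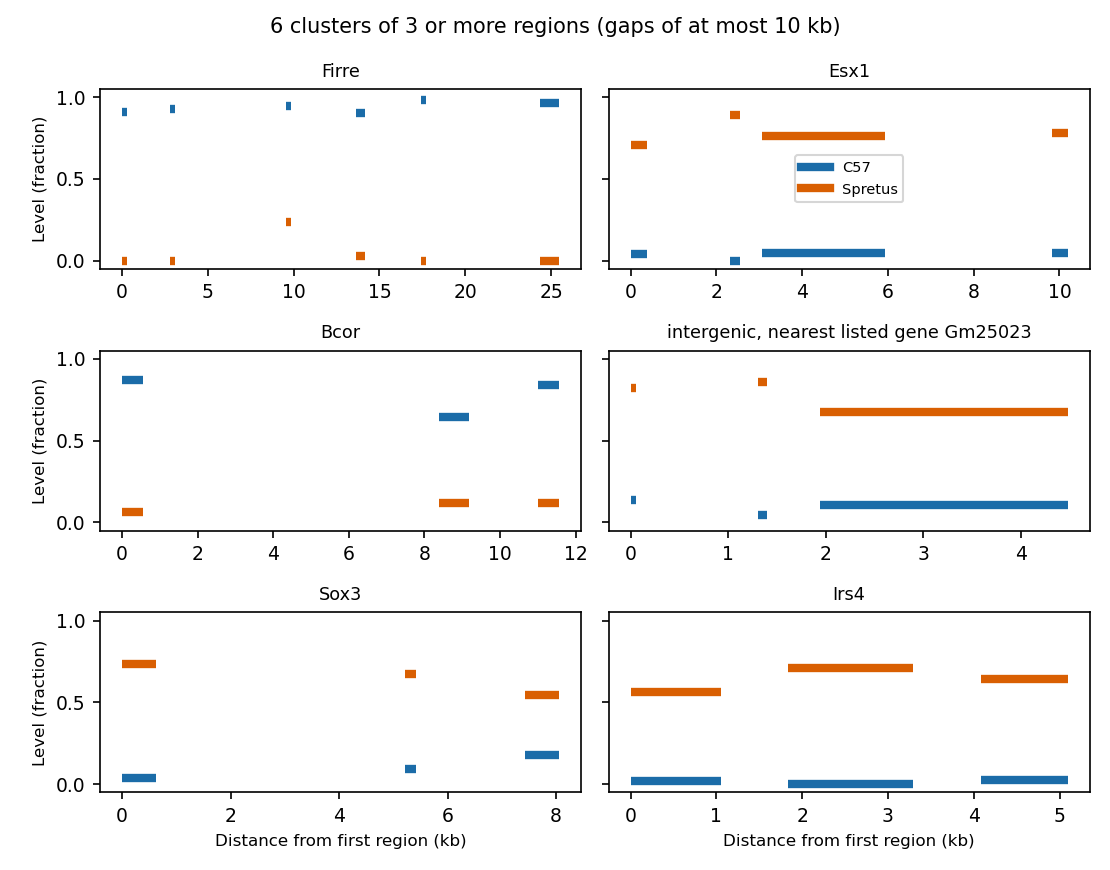
Methylation level (y axis, fraction) on C57 (blue) and Spretus (orange) along 6 of the 8 clusters of 3 or more regions, against the distance in kb from the first region of the cluster (x axis); each bar spans 1 region, and very short regions are drawn wider to be visible. At Firre and Bcor the C57 bars are higher than the Spretus bars, and at the other 4 clusters lower.

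Along the chromosome, the regions were uneven. The median gap between neighbours was 174446 bp, and the largest, from 23738755 to 36142342, held none over 12403587 bp. Of the 10 Mb windows, the one from 50 to 60 Mb held most, at 39 regions (24 higher on Spretus, 15 on C57), and the one from 10 to 20 Mb held 37 (26 and 11). These 2 windows held 26 of the 70 regions higher on C57. From 120 to 130 Mb there were none, and from 0 to 10 Mb all 14 were higher on Spretus.

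At ends of genes under 1 FPKM there was a region for 82 genes, of which 37 were listed at an FPKM of 0 and whose median FPKM was 0.0301. The bodies of 128 genes held at least 1 region: 99 held 1, 19 held 2 and 10 held 3 or more. In 104 of them all were higher on Spretus, in 19 all were higher on C57, and 5 held both. Of the 128, 62 were expressed, with a median locus length of 106848 bp against 18488 bp for all expressed X genes. Part of this gap follows from the distance rule, since an expressed gene too short to reach beyond 2 kb from both of its ends could hold no region.

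Among lists of genes by role, developmental regulators and a mixed list of synapse, channel, adhesion and brain development genes often held or adjoined a region. Germline families hardly did. Of 20 X genes listed as developmental regulators, 8 did, against 157 of all 2609 X genes (6.02%). Their median locus was 14822 bp against 1232 bp for all X genes, and 9 of the 20 were expressed against 510 of 2609. Most of the 20 are transcription factors or corepressors, but Satl1, an acetyltransferase-like gene without a region, is not. Dmrtc1a, also without a region, is counted among the germline families below as well. Among the 8 were Tfe3, Bcor, Sox3, Cdx4, Tbx22 and Esx1. In 7 of the 8 every region in the gene body was higher on Spretus, and Bcor was the exception. At Cdx4, a homeobox factor of the posterior body listed at an FPKM of 0, the levels were 0 and 0.696, and at Tbx22, a palate factor at an FPKM of 0.427, the region of 307 bp had 0.0188 and 0.699.

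Of 31 genes of synapses, ion channels, adhesion and brain development, 13 (41.9%) held or adjoined a region, and the median locus of the list was 198377 bp. Of the 31, 24 were expressed, against 510 of all 2609 X genes. The 13 include the transcription factor Dach2 and the formin Diap2, so their share is not one of synaptic genes alone. At Syp, the synaptic vesicle protein synaptophysin, the levels were 0.115 and 0.630, and at Nlgn3, a synaptic adhesion protein, 0.152 and 0.756. In Gria3, an AMPA receptor subunit, they were 0.381 and 0.720. In Dmd, the dystrophin gene, there were regions with 0.0507 and 0.706 and with 0.229 and 0.918. Diap2 was the only one of the 13 whose body regions were higher on C57. Of 129 entries for germline families, listed by the start of the symbol and with Tex16 entered at more than 1 locus, only Rhox11 held or adjoined a region (0.775%). That region, of 134 bp, was higher on C57 (0.942 and 0). Of the 129, 10 were expressed, and listed regions at ends of Maged1, Maged2, Magee1 and Magee2 are left out by the distance rule for that reason. Maged1 had an FPKM of 137 in library 1, so the symbols do not pick genes silent in cortex alone. How well reads could be placed among the similar copies of these families was not examined. Of 7 noncoding loci, Firre and 4933407K13Rik had regions, and Xist, Tsix, Ftx and Jpx had none of the 279. The whole list has 3 regions at the ends of Xist, 1 of them also at an end of Tsix, which the distance rule leaves out because Xist is expressed. These lists were chosen with earlier results of the same data known, and nothing was tested over them.

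Reads from RNA, the measure that did not choose the regions apart from the FPKM of library 1, came almost entirely from the C57 allele in the genes that hold a region. Of these genes, 61 reached 10 reads assigned to an allele in both libraries. The quasi-likelihood test of edgeR, adjusted by Benjamini-Hochberg over all 11981 genes tested, called 61 toward C57 and 0 toward Spretus. Over all genes 8.55% were called in either direction. Among all 397 tested X genes 99.2% were called toward C57, and among autosomal genes 3.04% (11.3% with the library as a block), so 61 of 61 is close to the share for the X chromosome as a whole. Over 53 of the genes with at least 20 reads in each library, the median share of Spretus reads was 0.199%, and 20 had no Spretus read. In library 1 alone this median was 0.132% and in library 2 alone 0. Summed over them the share was 1.97%, at 2.02% in library 1 and 1.85% in library 2. Of the low genes with a region at an end, 3 could be tested, 4933407K13Rik, Kctd12b and Zfp92, and all 3 were called toward C57.

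The genes with regions higher on C57 were also read almost only from C57. Of the 24 that hold such a region, 17 were tested and all 17 called toward C57, with a median Spretus share of 0.105% over 14 genes. Genes that held only regions higher on Spretus had a median of 0.199% over 39. The medians were 0 and 0.234% in library 1 and 0 in both sets in library 2, so they show no difference that both libraries share. Firre had 791 C57 against 15 Spretus reads in library 1 and 162 against 1 in library 2, which gives a Spretus share of 1.24% ± 0.882 (SD, n = 2). Bcor had 282 and 0 reads in library 1 and 62 and 0 in library 2, where 0 of 344 reads allows a share of up to 0.872%. Prrg1, with 3 regions higher on C57, had 80 and 1 reads and 17 and 0. In these 3 genes the RNA came from the allele with the higher methylation.

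A Spretus share above 2% of the reads summed over both libraries was found in 6 of the 53 genes. Shares given with an SD are means of the 2 libraries. Ddx3x had 383 C57 against 183 Spretus reads in library 1 and 151 against 63 in library 2, which gives a share of 30.9% ± 2.05 (SD, n = 2), and a log2 ratio of Spretus over C57 of -1.07 ± 0.240 (SE; edgeR, adjusted p = 0.0143). Kdm6a had 129 and 41 reads and 34 and 10, a share of 23.4% ± 0.983, and a log2 ratio of -1.55 ± 0.256 (SE; edgeR, adjusted p = 0.00151). Both are known escape genes, and both hold regions more than 2 kb inside the gene that were higher on Spretus. Gpm6b, a membrane proteolipid of neurons and myelinating glia with 5 regions higher on Spretus, had 1083 and 131 reads and 462 and 34, a share of 8.82% ± 2.78. Tspan7, a tetraspanin of the cell membrane, had 384 and 13 reads and 182 and 1, and Mtm1 had 101 and 3 and 24 and 0. The shares of the last 2 rest on few Spretus reads, and in library 2 both were below 1%. Their means over the libraries were 1.91% for Tspan7 and 1.44% for Mtm1, below the 2% that their summed reads exceed.

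In Gpm6b the levels on C57 were 0.109 to 0.336 and those on Spretus 0.835 to 0.929. In Cask, a presynaptic scaffold that held 4 regions, the levels were 0.0783 and 0.642, 0.373 and 0.894, 0 and 0.787, and 0 and 0.754. Its RNA had 856 C57 against 1 Spretus read in library 1 and 224 against 1 in library 2. Regions of both genes were thus higher on Spretus, while the Spretus share of RNA was 8.82% in Gpm6b and 0.281% ± 0.232 in Cask. This difference between the genes was not tested.

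**Figure D5:**
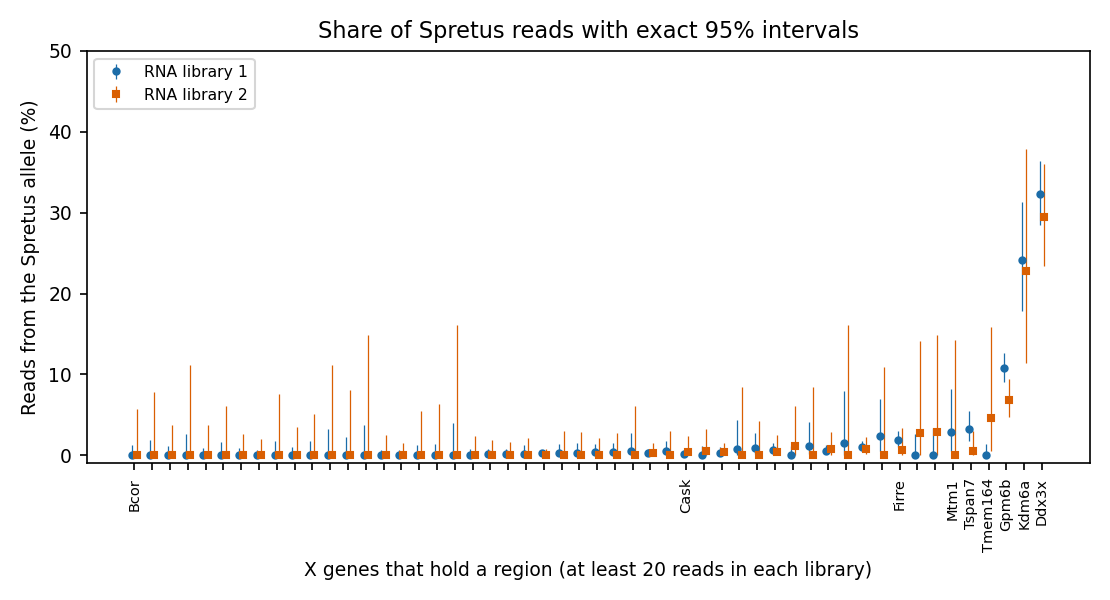
Share of allele-assigned RNA reads from Spretus in percent (y axis) for 52 of the 53 X genes that hold a region and have at least 20 reads in each library (x axis, genes named in the text labelled), with exact 95% intervals; blue points are RNA library 1 and orange points library 2. Ddx3x and Kdm6a stand above 20% in both libraries, Gpm6b at 10.8% and 6.85%, and most other genes near 0.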

How the data were processed

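The methylation levels are fractions, 1 per allele and region, as deposited in the authors' region list. No source used here gives the caller's thresholds, the cytosine context or the coverage. The RNA tables hold, per the file headers, raw counts of C57 and of Spretus reads per gene and 1 FPKM per gene. The submitters' processing notes name the build mm10 and, without saying what each did, bedtools 2.2.4, HTSeq 0.6.0, Cufflinks 2.1.1 and TopHat2 2.0.9. Starts and ends read as counted from 1 all fell on a CG within promoter windows (62 of 62 and 55 of 55), and 31 and 29 did when read as counted from 0, so region coordinates count from 1. Of 1613 regions, 13 without levels were left out. Of 46320 gene identifiers, 45815 matched a table of gene names.

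Allele counts were tested with edgeR 4.0.16 in R 4.3.3 (glmQLFit and glmQLFTest, TMM scaling, allele as the only term, threshold 0.05), and DESeq2 1.42.0 was an alternative. Residual degrees of freedom were 2 and prior degrees of freedom 9.34. On simulated counts for 11394 autosomal genes, edgeR recovered 57.0% of 2-fold and 99.0% of 4-fold changes, with 6.59% of its calls false. The simulated columns were drawn independently, without pairing by library, so these rates may not hold for the real columns. Both alleles of a library were read from 1 RNA sample, so the columns are paired by library, and over 7565 autosomal genes with at least 200 reads their deviations had a correlation of 0.597. Intervals are exact Clopper-Pearson 95% intervals and cover counting error only, since reads carry no molecular identifiers. For a share of 0, the limit is 3 reads of the total.

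Regions named are the 8 longest, the 5 longest of those higher on C57, the 3 largest differences in each direction from 200 bp, clusters of at least 4, the 3 nearest either side of the 2 kb limit and those at Firre, Dxz4, Xist, Tsix, Ftx and Jpx. Genes named are those that these regions touch, the 5 holding most regions, those with the 5 highest Spretus shares, and members of 4 gene lists. Some genes and regions that this rule names are not reported here. Other named regions, clusters of 3, Prrg1 and the printed promoters were chosen after their values were seen. The regions and lists were chosen with earlier results of these data known. Tables were handled with pandas 2.3.3, numpy 2.4.6 and scipy 1.17.1.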

Additional observations from a re-analysis of the deposited data

How the results depend on the processing

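The number of regions ran from 221 to 359 over other FPKM minimums, the FPKM of library 2 and distances of 1 to 10 kb, and in each case most were higher on Spretus. With an FPKM minimum of 5 the share was 80.1% (356 regions), and with the FPKM of library 2, where FPKM was a median 5.68 times lower, it was 80.2% (359 regions). Among regions of at least 200 bp the median Spretus level of those higher on Spretus was 0.689 and the median difference 0.616. With 5 kb around low gene ends, 14 regions were left in bodies of low genes, since more counted as at an end. The clusters depend on the gap allowed: 14 clusters held 29 regions at 1 kb, 143 regions were in clusters at 50 kb and 168 at 100 kb. Added after seeing the data, leaving out Firre gave 77.4% higher on Spretus, and leaving out regions at RefSeq promoters gave 71.4%.

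Of 61 genes tested, edgeR called 61 toward C57 with the library as a replicate block and 61 with a shared library total. DESeq2 called 60 of the 61, with Tmem164 at an adjusted p of 0.0583. With no filter on low counts edgeR tested 107 genes and called 76 of them toward C57, a smaller share. The block changed no call among the genes holding regions. Leaving out 1 library, the summed Spretus share ran from 1.85 to 2.02% and the median share from 0 to 0.132%. The coverage behind each level is not known, so no interval can be given for a single region.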
